A study of Mus musculus with 6 samples.

Results

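The small integrin-binding ligand, N-linked glycoproteins (the SIBLING family) are the acidic, secreted phosphoproteins of dentin and bone. Their 5 genes, Dspp, Dmp1, Ibsp, Mepe and Spp1, were taken by symbol from the 24972 genes of each deposited table, and each symbol was present in both tables. The tissue was the upper (maxillary) first molar of newborn mice, taken at postnatal day 1, with 2 libraries each of Ascl5Mut/Mut, Ascl5Mut/WT and Ascl5WT/WT molars. Ascl5 belongs to the achaete-scute family of helix-loop-helix factors. The labels name a mutant allele without describing the change, and they do not give the strain or say how many animals or teeth went into a library. Dspp, the product of dentin-forming odontoblasts, was set against the members best known from bone, across the 3 genotypes.

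SIBLING proteins are secreted into the collagen matrix before it mineralizes. Their phosphorylated serines and acidic residues bind calcium and hydroxyapatite, and a short integrin-binding motif lets cells attach to them. Dspp encodes a precursor that is cleaved into dentin sialoprotein and dentin phosphoprotein, and its mutations cause hereditary dentin defects in humans. In a newborn mouse molar, odontoblasts are only beginning to lay down dentin under the cusps, while bone of the tooth socket forms just outside the tooth.

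The libraries held totals of 12304814 to 13118122 normalized counts. Low values lay near multiples of a step of 109 to 140 normalized counts, the apparent worth of 1 read. This gives an estimated 90476 to 117243 counted reads per library, and 66.6% to 71.0% of genes were listed at 0. A gene at 0 is therefore compatible with up to 3 reads, or 326 to 419 normalized counts depending on the library; this limit covers counting error only. Ascl5 itself was listed at 0 in every library, so the genotype labels could not be checked on it. As a check of the tissue label, the enamel matrix genes Amelx, Ambn and Enam were near or at 0, with no value above 809 normalized counts. Type I collagen RNA was abundant: Col1a1, looked up after its values had been seen, ranged from 11973 to 46510 normalized counts over all libraries.

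The family lies in 1 cluster on mouse chromosome 5 with every gene on the plus strand (GRCm38, GENCODE M21). Dspp spans chr5:104170712-104180127, Dmp1 chr5:104202613-104214102, Ibsp chr5:104299171-104311469, Mepe chr5:104325329-104338611 and Spp1 chr5:104435118-104441050. The cluster covers 270.3 kb from the Dspp start to the Spp1 end. No exon of a member overlaps an exon on the opposite strand, so in this annotation no antisense gene shares their reads. Spp1 shares 309 exonic bases with the model Gm42793 on the same strand, and 3.41% of the 31-base words of its transcript also occur there. Dspp, Ibsp and Mepe share no 31-base word with another gene, and Dmp1 shares 0.402%. These reads can be told apart by sequence, except for the small stretches of Spp1 and Dmp1.

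The members are read here through the features that unite the family, since the proteins share little else in sequence. The coding sequence of each member holds exactly 1 in-frame codon triple for arginine, glycine and aspartate, the integrin-binding motif, which 7.44% of 20956 mouse coding genes have at least once. It is shown with 9 bases on either side, from the GENCODE M21 transcripts, with the motif codons in capitals.
Dspp: agtggcagcCGTGGAGATgcttcttac
Dmp1: agcgagtccAGGGGTGACaacccagat
Ibsp: ggggagcctCGTGGCGACacttaccga
Mepe: cttctagtgAGGGGAGATaatgatgtc
Spp1: cccaacggcCGAGGTGATagcttggct
The codons that write the motif differ between members, and so do the flanking bases. The motif starts at codon 479 of Dspp, 350 of Dmp1, 293 of Ibsp, 183 of Mepe and 144 of Spp1.

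The share of serine and acidic codons was largest in Dspp, and a long run of serine and aspartate codons set it apart from the bone members. Serine, aspartate and glutamate codons made up 61.7% of the 945 codons of Dspp, and no other mouse coding gene compared had a larger share (0%). The shares were 50.9% in Dmp1, 40.5% in Spp1, 32.1% in Ibsp and 24.7% in Mepe, against a median of 19.2% over coding genes. Of all coding genes, 0.00477% had a larger share than Dmp1, 0.0764% than Spp1, 0.577% than Ibsp and 9.55% than Mepe. The longest unbroken run of serine and aspartate codons was 98 codons in Dspp, against 10 in Spp1 and 5 in Dmp1. A stretch of 150 bases from that run, codons 595 to 644, shows the dentin phosphoprotein repeat, with its 15 aspartate codons in capitals among 35 serine codons.
Dspp: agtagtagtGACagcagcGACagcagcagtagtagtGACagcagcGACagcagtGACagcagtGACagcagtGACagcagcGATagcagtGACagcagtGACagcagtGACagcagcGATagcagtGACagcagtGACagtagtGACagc
Within the Dspp transcript, 10.2% of 31-base words occur more than once. Reads from the repeat fit several places in Dspp but in no other gene.

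Dspp was abundant in Ascl5Mut/WT molars and near or at 0 in the other genotypes. Ascl5Mut/WT replicates 1 and 2 held 14045 and 8122 normalized counts, against 336 and 0 for Ascl5WT/WT. The lower Ascl5Mut/WT value was 24.2 times the higher Ascl5WT/WT value, and the Ascl5Mut/WT libraries differed from each other by 1.73 times. In bulk RNA like this, more cells of a type and more RNA per cell cannot be told apart, and neither can a change within the tooth and a different amount of surrounding tissue. These values come to an estimated 111 and 59.4 reads in Ascl5Mut/WT, against 3.04 and 0 in Ascl5WT/WT. Dspp rose in Ascl5Mut/WT by a log2 difference of 5.53 (SE 0.76, limma adjusted p = 0.000399, n = 2 libraries each). It reached the minimum mean set for testing through its Ascl5Mut/WT libraries alone. In a fit over all genes above 0, without that minimum, its limma adjusted p was 0.00102. All log2 differences given here are mutant minus Ascl5WT/WT on the scale of log2(normalized count + 120). In that comparison limma called 13 of 2370 tested genes, or 0.549%, with 0.338% called as higher, and 3 genes had a smaller p than Dspp. Without Ascl5Mut/WT replicate 1 the log2 difference was 5.14 (limma adjusted p = 0.751), and without replicate 2 it was 5.92 (limma adjusted p = 0.841). Those fits, with 1 mutant library each, called 0 of all genes tested. The Dspp result also depends on the setting, with a limma adjusted p of 0.286 at a pseudocount of 1 and a range of 1.59e-10 to 0.559 over the 10 settings tried. The low end came from a replicate block, although the labels do not say that replicate numbers pair samples. The next lowest limma adjusted p was 5.86e-05, at a pseudocount of 360.

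In Ascl5Mut/Mut molars Dspp was listed at 0 in both libraries, against 327 and 0 in Ascl5WT/WT. With about 3 reads in 1 of the 4 libraries it missed the minimum mean of 1000 normalized counts for testing. In those libraries a count of 0 allows up to 419 and 408 normalized counts, above the Ascl5WT/WT values, so a difference was not detectable at this depth. Both Ascl5Mut/WT values lie far above that limit. The tables of the mutant genotypes were normalized separately, but the Ascl5WT/WT values they share differed between them only by a median ratio of 1.018 in replicate 1 and 1.041 in replicate 2.

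**Figure D1:**
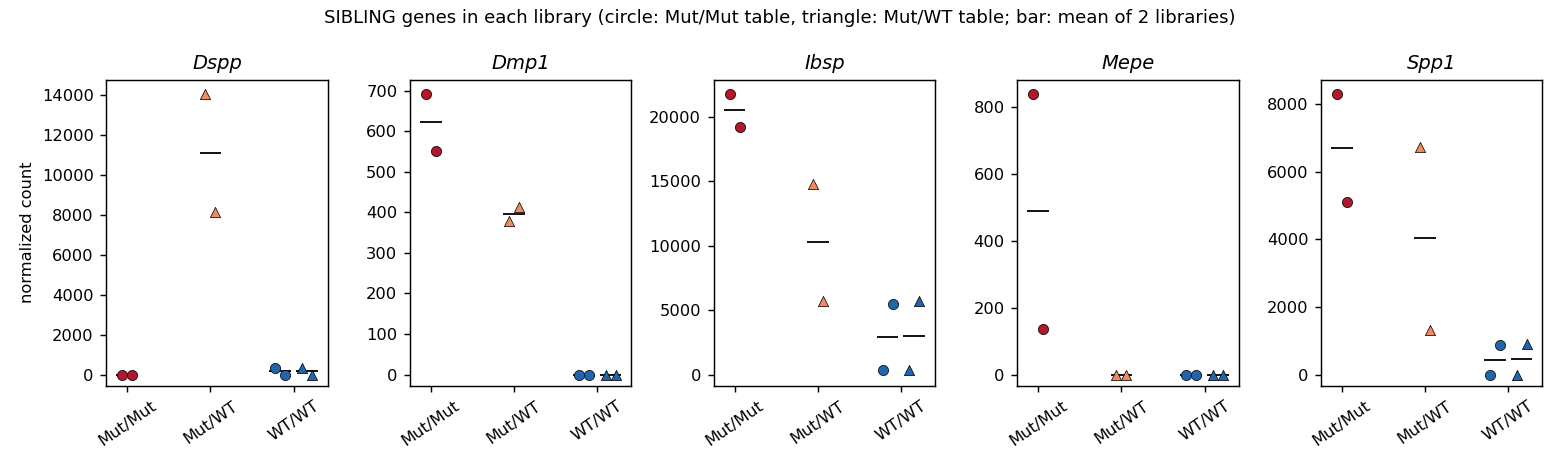
Normalized counts of the 5 SIBLING genes (vertical axes, linear, a separate range per gene) in each library of Ascl5Mut/Mut, Ascl5Mut/WT and Ascl5WT/WT molars; circles come from the Ascl5Mut/Mut table, triangles from the Ascl5Mut/WT table, and bars are means of 2 libraries. The 2 Ascl5WT/WT libraries appear once per table. Dspp stands out in Ascl5Mut/WT alone (14045 and 8122), while Ibsp and Spp1 are higher in both Ascl5Mut/Mut libraries than in any Ascl5WT/WT library.

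Ibsp, which encodes bone sialoprotein, a nucleator of hydroxyapatite made by osteoblasts and cementoblasts, was the most abundant bone member in every library. It had 21832 and 19262 normalized counts in Ascl5Mut/Mut, against 329 and 5488 in Ascl5WT/WT. The means were 20547 ± 1817 in Ascl5Mut/Mut and 2909 ± 3648 in Ascl5WT/WT (SD, n = 2 each). Both Ascl5Mut/Mut libraries lay above both Ascl5WT/WT libraries, by 3.51 times at the narrowest. The log2 difference of 3.70 (SE 0.92) did not pass limma (adjusted p = 0.143), although 1.11% of tested genes had a larger one. The Ascl5WT/WT libraries themselves differed by 16.7 times, and without Ascl5WT/WT replicate 2 the limma adjusted p was 0.000316, within a range of 0.000316 to 0.544 over the 4 libraries left out in turn.

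In Ascl5Mut/WT, Ibsp had 14841 and 5745 normalized counts, against 336 and 5722 in Ascl5WT/WT. The means were 10293 ± 6432 in Ascl5Mut/WT and 3029 ± 3809 in Ascl5WT/WT (SD, n = 2 each). The groups barely separated, since the lower Ascl5Mut/WT value was 1.004 times the higher Ascl5WT/WT value. The log2 difference was 2.52 (SE 0.80, limma adjusted p = 0.252). Without Ascl5WT/WT replicate 2 the adjusted p was 0.00162, within a range of 0.00162 to 0.888 over the 4 libraries left out in turn.

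Spp1, which encodes osteopontin, an integrin and CD44 ligand made by osteoblasts, osteoclasts and macrophages, ran alongside Ibsp. It had 8305 and 5100 normalized counts in Ascl5Mut/Mut, against 0 and 862 in Ascl5WT/WT. The means were 6702 ± 2266 in Ascl5Mut/Mut and 431 ± 609 in Ascl5WT/WT (SD, n = 2 each). The lower Ascl5Mut/Mut value was 5.92 times the higher Ascl5WT/WT value. The log2 difference of 4.27 (SE 0.99) did not pass limma (adjusted p = 0.103), and 0.642% of tested genes had a larger one. Without Ascl5WT/WT replicate 2 the adjusted p was 0.0124, within a range of 0.0124 to 0.486 over the 4 libraries left out in turn. At a pseudocount of 360 it was 0.0469, within a range of 0.0388 to 0.709 over the 10 settings tried. The low end came from a replicate block, although the labels do not say that replicate numbers pair samples.

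The Ascl5Mut/WT libraries disagreed on Spp1 more than on any other member above 0 in both. It had 6728 and 1322 normalized counts there, against 0 and 900 in Ascl5WT/WT. Replicate 1 held 5.09 times the value of replicate 2 for Spp1, 2.58 times for Ibsp and 1.73 times for Dspp. The log2 difference of Spp1 was 3.17 (SE 1.18, limma adjusted p = 0.369). Set on Ibsp within a library, Spp1 stood at 0.380 and 0.265 in Ascl5Mut/Mut, 0.453 and 0.230 in Ascl5Mut/WT, and 0 and 0.157 in Ascl5WT/WT.

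Dmp1, which encodes an acidic matrix protein of odontoblasts and osteocytes needed for mineralization, was seen in mutant libraries only. It had 692 and 551 normalized counts in Ascl5Mut/Mut, against 0 in both Ascl5WT/WT libraries. In Ascl5Mut/WT it had 378 and 413, against 0 in both Ascl5WT/WT libraries. These are an estimated 4.95 and 4.05 reads in Ascl5Mut/Mut, and 2.97 and 3.02 in Ascl5Mut/WT, close to the 3 reads that a value of 0 allows. Dmp1 missed the minimum mean in both comparisons, and in a fit over all genes above 0 its limma adjusted p was 0.709 in the Ascl5Mut/Mut comparison and 0.770 in the other.

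Mepe, which encodes a matrix phosphoglycoprotein of osteocytes and odontoblasts whose acidic peptide inhibits mineralization, was seen in Ascl5Mut/Mut alone. It had 840 and 136 normalized counts there, or an estimated 6.01 and 1.00 reads, against 0 in both Ascl5WT/WT libraries. It was listed at 0 in both Ascl5Mut/WT libraries. Its limma adjusted p in the fit over all genes above 0 was 0.709 for Ascl5Mut/Mut, so neither of these low members was shown to differ.

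Counted together, 4 of the 5 members had both Ascl5Mut/Mut libraries above both Ascl5WT/WT libraries, the exception being Dspp. Over all genes above 0 in that table this held for 13.3%. In Ascl5Mut/WT it also held for 4 of 5, the exception being Mepe, against 14.5% of genes above 0. No member was lower in the same sense in either comparison, as were 13.5% and 11.8% of genes above 0 for Ascl5Mut/Mut and Ascl5Mut/WT. Of the 5 members, 2 reached the minimum mean in the Ascl5Mut/Mut comparison and 0 were called, where limma called 20 of 2336 tested genes, or 0.856% (0.557% as higher), with 261 at an unadjusted p under 0.05. In the Ascl5Mut/WT comparison 3 reached it and 1 was called, against 0.549% of tested genes. Dspp and Spp1 passed the minimum through their mutant libraries alone, so the counts among tested members describe the test and support nothing further. All tested genes had a median log2 difference of -0.02 in the Ascl5Mut/Mut comparison and 0.04 in the Ascl5Mut/WT comparison. Both comparisons share the same 2 Ascl5WT/WT libraries.

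**Figure D2:**
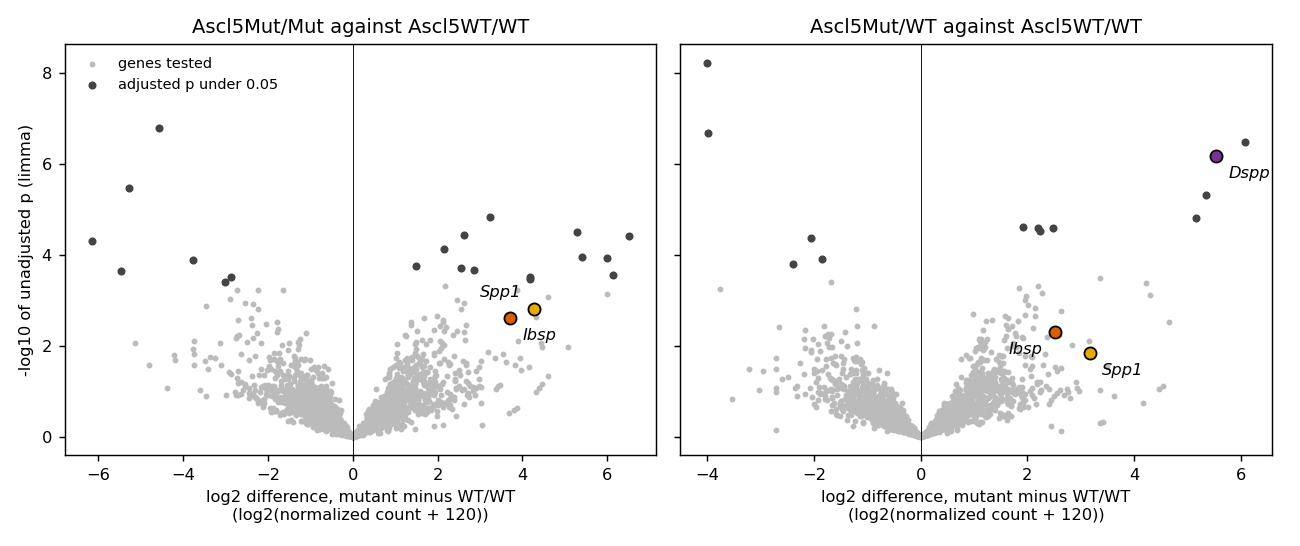
Each tested gene by its log2 difference, mutant minus Ascl5WT/WT (horizontal, log2(normalized count + 120)), and the -log10 of its unadjusted limma p (vertical), for Ascl5Mut/Mut (left) and Ascl5Mut/WT (right); dark points have an adjusted p under 0.05 and named points are SIBLING genes. Dspp is among the called genes on the right (log2 difference 5.53), while Ibsp and Spp1 lie high but below the called genes in both panels.

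The contrast between the dentin member and the bone members was taken within each library, where a scaling factor cancels up to the pseudocount. It is the log2 of Dspp minus the mean log2 of Dmp1, Ibsp, Mepe and Spp1. The values were -4.85 and -4.09 in Ascl5Mut/Mut, 3.17 and 3.26 in Ascl5Mut/WT, and 1.42 and -2.14 in Ascl5WT/WT (Ascl5Mut/Mut table). Ascl5Mut/Mut libraries were thus the lowest and Ascl5Mut/WT libraries the highest, with the Ascl5WT/WT libraries spread between them. Ascl5Mut/Mut minus Ascl5WT/WT was -4.11, and Ascl5Mut/WT minus Ascl5WT/WT was 3.58. Ascl5Mut/Mut minus Ascl5Mut/WT was -7.69, with no overlap between the groups. Each of these 3 comparisons had a two-sided exact permutation p of 0.333, the smallest that 2 against 2 libraries can give, so none could pass a threshold of 0.05. With each library left out in turn the difference was -5.89 to -2.33 for Ascl5Mut/Mut and 1.77 to 5.39 for Ascl5Mut/WT, with both ends of each range set by the Ascl5WT/WT library left out.

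The bone side of that ratio includes Dmp1 and Mepe, which were mostly at 0. Against Ibsp alone, the log2 ratio of Dspp was -7.52 and -7.34 in Ascl5Mut/Mut, -0.08 and 0.49 in Ascl5Mut/WT, and -0.01 and -5.55 in Ascl5WT/WT (Ascl5Mut/Mut table). Dspp and Ibsp thus had similar counts in both Ascl5Mut/WT libraries, whereas Ibsp exceeded Dspp by far in both Ascl5Mut/Mut libraries. In Ascl5WT/WT replicate 1 the ratio near 0 rests on about 3 reads of each gene. The difference was -4.65 for Ascl5Mut/Mut (exact permutation p = 0.333) and 3.01 for Ascl5Mut/WT (exact permutation p = 0.667), with overlapping groups in Ascl5Mut/WT. Without Ascl5WT/WT replicate 2 the difference for Ascl5Mut/WT was 0.21, and without Ascl5WT/WT replicate 1 it was 5.81. For Ascl5Mut/Mut these were -7.42 and -1.88.

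**Figure D3:**
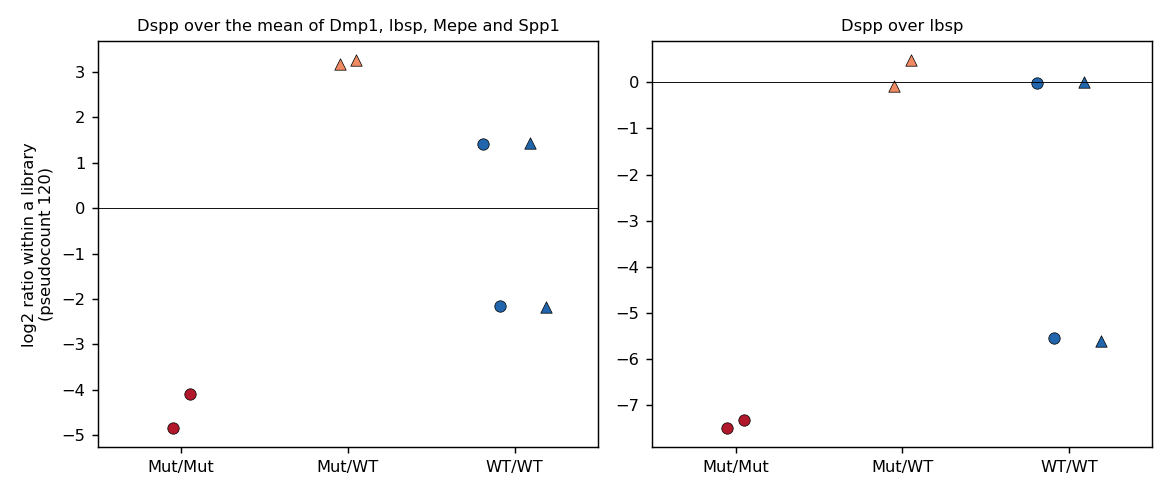
Log2 ratio within each library (vertical, pseudocount 120) of Dspp over the mean of the 4 bone members (left) and over Ibsp alone (right), for Ascl5Mut/Mut, Ascl5Mut/WT and Ascl5WT/WT; circles come from the Ascl5Mut/Mut table, triangles from the Ascl5Mut/WT table. On the left the Ascl5Mut/Mut libraries are lowest (-4.85 and -4.09) and the Ascl5Mut/WT libraries highest (3.17 and 3.26).

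Levels of different members can be compared per length of exon, with a limit for Dspp. How reads from the Dspp repeat were counted is not stated, which may affect its level and share per kilobase. Per kilobase, Ibsp ranked first in all 6 libraries. Spp1 came next in both Ascl5Mut/Mut libraries. In Ascl5Mut/WT replicate 1 Spp1 came ahead of Dspp, and in replicate 2 Dspp ahead of Spp1, so these neighbours in the order did not keep their places. In Ascl5WT/WT only 2 members were above 0 in each library, Ibsp with Dspp in replicate 1 and Ibsp with Spp1 in replicate 2.

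The family's summed output was 31669 and 25049 normalized counts in Ascl5Mut/Mut, 35992 and 15602 in Ascl5Mut/WT, and 656 and 6349 in Ascl5WT/WT. The mutant sums all lay above the Ascl5WT/WT sums. Without Dspp, the 4 bone members summed to 31669 and 25049 in Ascl5Mut/Mut, 21947 and 7480 in Ascl5Mut/WT, and 329 and 6349 in Ascl5WT/WT. Dspp made up 0% of the per-kilobase sum in both Ascl5Mut/Mut libraries, 21.8% and 33.0% in Ascl5Mut/WT, and 31.7% and 0% in Ascl5WT/WT. The 31.7% belongs to the library with about 3 reads each of Dspp and Ibsp.

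**Figure D4:**
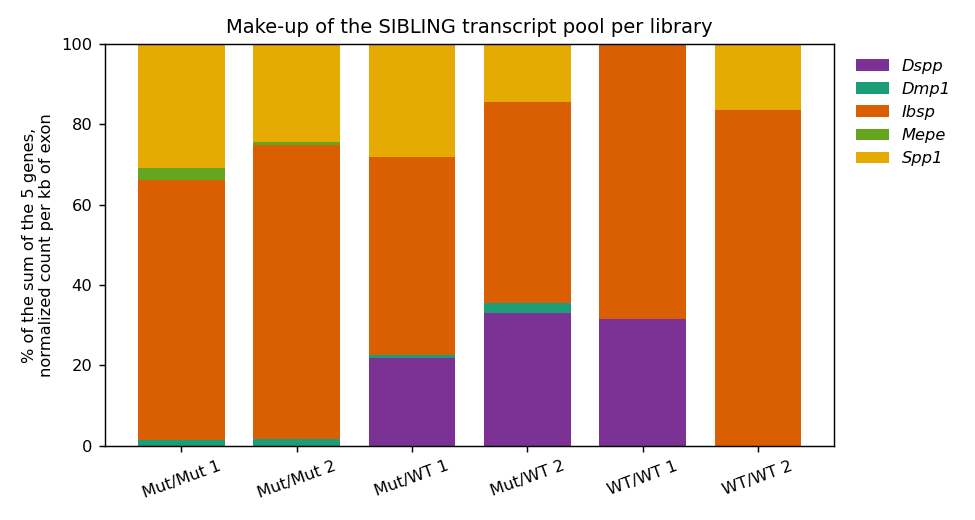
Share of each SIBLING gene in the family's summed normalized count per kilobase of exon (vertical, percent), in the 2 libraries each of Ascl5Mut/Mut, Ascl5Mut/WT and Ascl5WT/WT (Ascl5WT/WT as in the Ascl5Mut/Mut table). Dspp is absent from both Ascl5Mut/Mut bars and takes 21.8% and 33.0% of the Ascl5Mut/WT bars; Ibsp is the largest piece of every bar.

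Genes around the cluster were read in the same way. Of 7 protein-coding neighbours on either side, 2 had both Ascl5Mut/Mut libraries above both Ascl5WT/WT libraries and 2 had both Ascl5Mut/WT libraries above them, and 0 were lower in either. The shares over all genes above 0 are the 13.3% and 14.5% higher and 13.5% and 11.8% lower given for the members. Hsd17b13 and Gm17660, among the 7, were at 0 in every library. Sparcl1, a matricellular relative from which the cluster is thought to have arisen by duplication, had 3791 and 1890 normalized counts in Ascl5Mut/Mut, 1650 and 4042 in Ascl5Mut/WT, and 441 and 1351 in Ascl5WT/WT (mean of the tables). Its log2 difference was 1.65 for Ascl5Mut/Mut (limma adjusted p = 0.484) and 1.56 for Ascl5Mut/WT (limma adjusted p = 0.566). Pkd2, on the far side of Spp1, overlapped between genotypes with log2 differences of -0.56 and -0.31. Dspp and Dmp1 lie 22.5 kb apart.

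**Figure D5:**
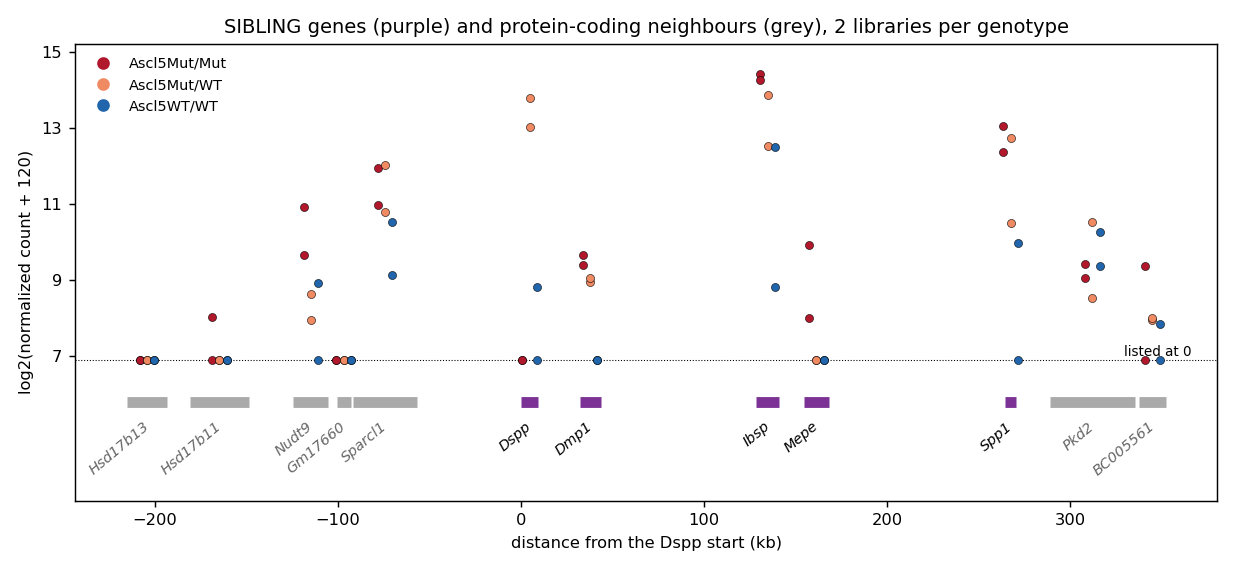
Map of the cluster: gene bodies of SIBLING genes (purple) and protein-coding neighbours (grey) by distance from the Dspp start (horizontal, kb), with log2(normalized count + 120) of every library above (vertical; Ascl5WT/WT as the mean of its values in both tables, dotted line at 0 normalized counts). Ascl5Mut/Mut, Ascl5Mut/WT and Ascl5WT/WT run left to right within a gene. Dspp is at the dotted line in Ascl5Mut/Mut while Ibsp and Spp1 are near their top values there.

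The genes with the closest profiles were sought by the root mean square difference of log2(normalized count + 120) over the 6 libraries, each profile set to its own Ascl5WT/WT mean. Among 2028 genes, Spp1 was the gene most like Ibsp, at 0.61, against a median of 2.95 over those genes. Spp1 was among them through its mutant libraries alone, and the median is no test of likeness. Gpr137b, which encodes a lysosomal membrane protein, was next at 0.62, and Mmaa, a mitochondrial gene of cobalamin handling, was at 0.71. Gpr137b was also closest to Spp1, at 0.51, with 9890 and 6112 normalized counts in Ascl5Mut/Mut, 4836 and 1217 in Ascl5Mut/WT, and 110 and 737 in Ascl5WT/WT. Pomgnt2, a glycosyltransferase of dystroglycan, followed for Spp1 at 0.84. For Dspp the search could not find a gene of the same shape. Candidates were genes that reached the minimum mean for testing in both comparisons, which Dspp missed in the Ascl5Mut/Mut comparison. A gene near 0 in all Ascl5Mut/Mut and Ascl5WT/WT libraries was thus left out, and whether Dspp has a close match was not tested. Among the candidates, the nearest to Dspp were Rbpms, Adcy5 and Pip4k2c, each at 2.34, against a median of 3.35. Ibsp ranked 1451 and Spp1 1533 of 2029 genes in likeness to Dspp.

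Because Ibsp and Spp1 had like profiles, their promoter windows are shown, from RefSeq (GRCm38.p6, plus strand, 250 bases before to 50 after the annotated start). Capitals mark E-boxes (CANNTG, the core that basic helix-loop-helix factors recognise) and RUNX motifs (ACCACA or its reverse complement TGTGGT).
Ibsp, chr5:104299037-104299336: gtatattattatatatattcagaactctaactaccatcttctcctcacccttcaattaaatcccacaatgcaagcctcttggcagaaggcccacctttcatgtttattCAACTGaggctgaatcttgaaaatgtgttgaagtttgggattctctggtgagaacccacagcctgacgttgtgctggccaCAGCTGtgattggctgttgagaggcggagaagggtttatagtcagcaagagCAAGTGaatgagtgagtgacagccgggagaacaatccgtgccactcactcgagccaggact
Spp1, chr5:104434861-104435160: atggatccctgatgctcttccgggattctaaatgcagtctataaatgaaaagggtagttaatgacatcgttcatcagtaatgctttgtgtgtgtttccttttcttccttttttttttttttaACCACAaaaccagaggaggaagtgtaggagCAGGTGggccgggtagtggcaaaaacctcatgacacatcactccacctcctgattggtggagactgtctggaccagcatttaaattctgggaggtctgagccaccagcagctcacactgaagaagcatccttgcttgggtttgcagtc
The Ibsp start lies 116 bases from that of GENCODE and the Spp1 start 7. The Ibsp window holds 3 E-boxes, 1 of them CAGCTG, and no RUNX motif. The Spp1 window holds 1 E-box at position -98 and 1 RUNX motif at position -128, counted from the start. RefSeq has 2 windows each for Dmp1 and Spp1, of which the one nearer the GENCODE start is described. The corresponding windows of Dmp1 and Mepe hold 4 E-boxes each, with 1 RUNX motif in Dmp1 and 2 in Mepe. Of 32544 mouse windows, 72.3% hold an E-box on these terms, 16.4% a CAGCTG and 16.7% a RUNX motif. The other Spp1 window has 2 E-boxes, no RUNX motif and no ATTGG or CCAAT, and the other Dmp1 window 5 E-boxes, no RUNX motif and a CCAAT or ATTGG match at -101. The 4 windows described hold the inverted CCAAT pentamer ATTGG or its reverse complement near the start, at -57 in Dmp1, -54 in Ibsp, -21 in Mepe and -46 in Spp1, as do 37.4% of windows at any position. Ibsp alone of the 4 has the reverse TATA box TTTATA close to the start, at -28; TATAAA or TTTATA stands anywhere in 13.6% of windows. CAGCTG is counted among the E-boxes, and in Mepe a RUNX motif abuts an E-box. These are letter matches and not binding sites.

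Enzymes that phosphorylate, cleave or degrade SIBLING proteins were described as a list of 14 genes, of which 4 were tested for Ascl5Mut/Mut and 3 for Ascl5Mut/WT. For Ascl5Mut/Mut 1 of 4 was called, as higher, and the median log2 difference was 2.42; for Ascl5Mut/WT 0 of 3 were called, with a median of 0.77. Ctsk, the collagen-degrading protease of osteoclasts that can also cleave osteopontin, had 11106 and 7277 normalized counts in Ascl5Mut/Mut, against 109 and 120 in Ascl5WT/WT (log2 difference 5.28, SE 0.74, limma adjusted p = 0.0151). Ctsk reached the minimum mean through its mutant libraries alone, and in the fit over all genes above 0, which called 1 gene in all, its adjusted p was 0.311. With either Ascl5Mut/Mut library left out limma made 0 calls. In Ascl5Mut/WT it had 4831 and 1338, against 111 and 126 in Ascl5WT/WT (limma adjusted p = 0.461). Phex, an endopeptidase that binds and cleaves acidic SIBLING peptides, had 1551 and 945 in Ascl5Mut/Mut, against 0 in both Ascl5WT/WT libraries. Bmp1, the protease that cuts the Dspp and Dmp1 precursors, had 1018 and 1105 in Ascl5Mut/Mut, against 229 and 121.9 in Ascl5WT/WT. Fam20a, the partner of the kinase Fam20c, had 687 and 278 in Ascl5Mut/Mut, against 0 and 0 in Ascl5WT/WT. Phex, Bmp1 and Fam20a were too low to test there, and the lower Fam20a value lies within what a value of 0 allows. Mmp9, a gelatinase of osteoclasts, had 4815 and 1661 in Ascl5Mut/Mut, against 109 and 0 in Ascl5WT/WT (limma adjusted p = 0.374). In Ascl5Mut/WT it had 2496 and 694, against 110 and 0 in Ascl5WT/WT, and was too low to test.

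Receptors of the family, 8 genes in all for integrin chains and Cd44, gave 0 calls among 2 tested for Ascl5Mut/Mut and 3 for Ascl5Mut/WT. Itgb1, the common integrin beta chain, had 6880 and 3606 normalized counts in Ascl5Mut/WT, against 5474 and 6525 in Ascl5WT/WT. Itgav, which pairs with beta chains to bind osteopontin and bone sialoprotein, had 277 and 0 in Ascl5Mut/Mut, against 650 and 2078 in Ascl5WT/WT, and was too low to test. Of 12 transcription factors of dentin and bone formation, 2 were tested in each comparison and 0 called. Runx2, the master factor of osteoblasts, had 0 and 141 in Ascl5Mut/Mut, against 1405 and 540 in Ascl5WT/WT, the opposite order to Ibsp. Msx2, a homeobox gene of tooth and skull mesenchyme, had 0 and 541 in Ascl5Mut/Mut, against 1834 and 1097 in Ascl5WT/WT. Nfic, a factor needed for odontoblast maturation and root formation, had 274 and 558 in Ascl5Mut/Mut, against 0 and 0 in Ascl5WT/WT. Runx2, Msx2 and Nfic were too low to test there, and the lower Nfic value lies within what a value of 0 allows. In Ascl5Mut/WT, Msx2 had 1392 and 544, against 1864 and 1140 in Ascl5WT/WT, with overlapping groups (limma adjusted p = 0.835). Exons of Runx2, Nfic and Itgav overlap an antisense gene by 519, 72 and 634 bases, so their reads may in part be those of the gene opposite.

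Further markers of osteoblasts and odontoblasts gave no call in either comparison. Of 16 further osteoblast and bone genes, 5 were tested for Ascl5Mut/Mut and 3 for Ascl5Mut/WT, with 0 calls and medians of 1.09 and 0.99. Bglap, osteocalcin, had 2528 and 1079 normalized counts in Ascl5Mut/Mut, against 0 and 845 in Ascl5WT/WT (limma adjusted p = 0.585). Alpl, the phosphatase that releases phosphate for mineral, had 1001 and 1527 in Ascl5Mut/WT, against 110 and 0 in Ascl5WT/WT, and was too low to test. Of 12 further odontoblast and dentin genes, some shared with the bone list, 3 and 4 were tested with 0 calls and medians of 1.09 and 0.69. The summed odontoblast list, which type I collagen dominates, was 114839 and 69588 in Ascl5Mut/Mut, 104206 and 53114 in Ascl5Mut/WT, and 26735 and 51417 in Ascl5WT/WT. Of these 12, Alpl alone was past 4-fold with separated groups in Ascl5Mut/WT. With separated groups of any size, 4 were higher there and 2 lower, against 14.5% and 11.8% of all genes above 0. In Ascl5Mut/Mut, 6 of the 11 above 0 were higher and 1 lower, against 13.3% and 13.5%. Nfic and Phex were past 4-fold there and too low to test. Sparc, a collagen-binding relative of the family, had 9099 and 7085 in Ascl5Mut/Mut, against 1209 and 2493 in Ascl5WT/WT (limma adjusted p = 0.145). In Ascl5Mut/WT it had 6686 and 2052, against 1231 and 2596 in Ascl5WT/WT, with overlapping groups (limma adjusted p = 0.617).

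Markers of cells outside the tooth also differed between the libraries. Of 11 osteoclast markers, 6 were above 0 in the Ascl5Mut/Mut table, and their sum was 17744 and 11955 normalized counts in Ascl5Mut/Mut, against 539 and 359 in Ascl5WT/WT. For Ascl5Mut/WT, 7 were above 0, with sums of 9598 and 2169 in Ascl5Mut/WT, against 552 and 380 in Ascl5WT/WT. The Ctsk call described above was the 1 call among the 2 osteoclast markers tested for Ascl5Mut/Mut, and 0 of 1 was called for Ascl5Mut/WT. Atp6v0d2, a proton pump subunit of osteoclasts, had 844 and 2032 in Ascl5Mut/Mut, against 0 and 0 in Ascl5WT/WT, and was too low to test. Acp5, the tartrate-resistant phosphatase, had 278 and 985 in Ascl5Mut/Mut, against 213 and 0 in Ascl5WT/WT. Calcr, Ocstamp, Dcstamp and Oscar were listed at 0 in every library, which allows up to 3 reads each. The 9 macrophage markers summed to 2374 and 2613 in Ascl5Mut/Mut, 1775 and 1379 in Ascl5Mut/WT, and 0 and 596 in Ascl5WT/WT. Csf1r, the receptor of macrophage colony-stimulating factor, had 1254 and 2069 in Ascl5Mut/Mut, against 0 and 476 in Ascl5WT/WT. In Ascl5Mut/WT it had 127 and 413, against 0 and 496 in Ascl5WT/WT, with overlapping groups. Csf1r exons overlap an antisense gene by 873 bases, so its reads may in part be those of the gene opposite. No macrophage marker reached the minimum mean for testing. Spp1 is also made by osteoclasts and macrophages, and their part in its values was not tested. The 6 skeletal muscle markers summed to 89320 and 4408 in Ascl5Mut/Mut, 23420 and 6621 in Ascl5Mut/WT, and 543 and 11389 in Ascl5WT/WT, lowest in the Ascl5WT/WT library that was also lowest in Ibsp and Spp1. Their part in the bone members' values was not tested either. The 13 keratinized oral epithelium markers summed to 21197 and 137215 in Ascl5Mut/Mut, 15461 and 53943 in Ascl5Mut/WT, and 2902 and 658 in Ascl5WT/WT. Of those 13, limma called 3 of 8 tested in Ascl5Mut/Mut (Krt4, Krt13 and Rptn) and 2 of 6 in Ascl5Mut/WT (Krt4 and Krt13), all higher, where 0.557% and 0.338% of all tested genes were called higher. These genes reached the minimum mean through their mutant libraries alone, so the counts describe the test. In the fit over all genes above 0, adjusted p for Ascl5Mut/Mut was 0.440 for Krt4, 0.576 for Krt13 and 0.440 for Rptn. For Ascl5Mut/WT it was 0.000274 for Krt4 and 0.0101 for Krt13. Krt76, Krt16, Krt6a, Krt1, Krtdap and Sprr3 were also past 4-fold in Ascl5Mut/Mut with separated groups but were not called, with log2 differences of 2.45 to 5.997. Krt76 and Krt6a exons overlap an antisense gene by 111 and 471 bases. The erythroid markers summed to 4665 and 2030 in Ascl5Mut/Mut, 1390 and 2879 in Ascl5Mut/WT, and 787 and 21426 in Ascl5WT/WT, highest in Ascl5WT/WT replicate 2, the library with the higher Ibsp of that genotype. Their part in the members' values was not tested.

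The lists of dental papilla, dental epithelium, chondrocyte, endothelial, Schwann cell and erythroid markers held 1 called gene, Dlx1, which encodes a homeodomain factor of tooth and jaw development. It had 2348 and 556 normalized counts in Ascl5Mut/Mut, against 47224 and 53336 in Ascl5WT/WT (limma adjusted p = 0.00405, and 0.311 in a fit over all genes above 0). In Ascl5Mut/WT it had 4658 and 2064, against 48116 and 55586 in Ascl5WT/WT (limma adjusted p = 1.41e-05). Dlx1 overlaps the antisense gene Dlx1as by 335 exonic bases, so its reads may in part be those of the gene opposite. With either library of the mutant genotype left out limma made 0 calls in both comparisons, those of the keratin genes and Dlx1 included.

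In the dental epithelium list, Shh, a signal of the enamel knot, was too low to test, at 0 and 0 in Ascl5Mut/Mut and 2146 and 1340 in Ascl5WT/WT. Trp63, a factor of basal epithelium, had 1049 and 5829 in Ascl5Mut/Mut, against 21134 and 13757 in Ascl5WT/WT (limma adjusted p = 0.145). In Ascl5Mut/WT it had 6836 and 15166.5, against 20373.5 and 13565 in Ascl5WT/WT, with overlapping groups (limma adjusted p = 0.601). Pecam1, of endothelium, had 148 and 1157 in Ascl5Mut/Mut, against 0 and 0 in Ascl5WT/WT. Ckm, the muscle creatine kinase, had 493 and 281 in Ascl5Mut/WT, against 0 and 0 in Ascl5WT/WT. Pecam1 and Ckm were too low to test in these comparisons, and the lower mutant value of each lies within what a value of 0 allows. Shh and Ckm exons overlap an antisense gene by 446 and 451 bases, so their reads may in part be those of the gene opposite. Lists with no called gene and none past 4-fold with separated groups were led by Itgb1 and Itgb5 among receptors, Msx2 and Klf4 among transcription factors, Adgre1 and Csf1r among macrophage markers, Krt14 and Trp63 in dental epithelium, and Cdh5 and Kdr in endothelium, all for Ascl5Mut/WT. Myh8 and Myh3 led the muscle list for Ascl5Mut/Mut. Col10a1 and Col2a1 led the chondrocyte list and Hba-a1 and Alas2 the erythroid list in both comparisons. S100b led the Schwann cell list in both comparisons.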

How the data were processed

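RNA libraries were made from total RNA of upper first molars with the SMARTer Stranded RNA-Seq kit, per the labels' protocols, with 2 libraries in each of 3 Ascl5 genotypes. The submitters' processing notes list DESeq2 and the mm10 build without versions; aligner, annotation and strand setting are not stated there or in the labels. Normalized counts per gene, a linear signal, were deposited by the authors in 2 tables that were normalized separately and share the Ascl5WT/WT libraries. Low values were close to, but not exactly, whole multiples of a step, so whole reads were not recovered and no count model was run.

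Mutant libraries were tested against Ascl5WT/WT libraries of the same table by limma 3.58.1 in R 4.3.3, on log2(normalized count + 120) with an intensity trend. Tests were two-sided and took in genes whose mean over the 4 libraries was 1000 or more. Adjusted p-values are Benjamini-Hochberg over all genes tested, and a call is an adjusted p under 0.05. The pseudocount is about the worth of 1 read; it understates changes of low genes. The fit was tested on simulated data with the same spread set for every gene and library. That test does not cover the uneven spread of these libraries. Within-library ratios were compared by exact permutation. The labels do not say that the 2 libraries of a genotype came from separate animals, so p-values measure only the spread between these samples, which may be technical. Nor do they say that replicate numbers pair samples.

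The members, gene lists and settings were chosen with earlier results of these data known. From each list the text names the genes called, those past 4-fold with groups that do not overlap, otherwise the 2 with the highest mean; other names were chosen after their values were seen, and a gene that the rule names is not reported here. Gene positions and coding sequences are from GENCODE M21 (GRCm38), promoter windows from RefSeq. Of the 5 members, 4 have a window there. Alternatives were other pseudocounts, minimum means and scalings, no trend, a replicate block and leaving out each library.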

Additional observations from a re-analysis of the deposited data

Results flagged for a closer look

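The ratio of Dspp over the bone members was flagged because it stood apart between the mutant genotypes. Both Ascl5Mut/Mut libraries lay below Ascl5WT/WT and both Ascl5Mut/WT libraries above it, and Ascl5Mut/Mut minus Ascl5Mut/WT was -7.69 on the log2 scale. With Dspp listed at 0 in both Ascl5Mut/Mut libraries, their ratios follow the bone members and the pseudocount alone. The two-sided exact permutation p was 0.333, the smallest that 2 against 2 libraries can give.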

How the results depend on the processing

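The direction of every member and ratio was kept under all alternatives run, except that Dspp in Ascl5Mut/Mut was at 0 without Ascl5WT/WT replicate 1. Scaling to equal totals or by the median ratio left Dspp in Ascl5Mut/WT called and Ibsp and Spp1 uncalled in both comparisons. The planned edgeR and DESeq2 fits were not run because whole reads were not recovered. A pseudocount of 1 gave 4 calls for Ascl5Mut/Mut and 8 for Ascl5Mut/WT, with log2 differences for Ascl5Mut/Mut of -4.18 for Dspp, 9.27 for Dmp1 and 8.41 for Mepe, and for Ascl5Mut/WT of 9.19 for Dspp (limma adjusted p = 0.286) and 8.63 for Dmp1. There the ratio of Dspp over the bone members was -11.5 in Ascl5Mut/Mut minus Ascl5WT/WT and -16.2 in Ascl5Mut/Mut minus Ascl5Mut/WT. It was 4.69 in Ascl5Mut/WT minus Ascl5WT/WT, with overlapping groups. The ratio over Ibsp was -8.11 in Ascl5Mut/Mut and 6.45 in Ascl5Mut/WT. Adding a minimum mean of 10 to that pseudocount gave the same member values and 0 calls in either comparison, with an adjusted p of 0.559 for Dspp in Ascl5Mut/WT. A pseudocount of 360 gave 1.44 and 1.07 for Dmp1 in Ascl5Mut/Mut and Ascl5Mut/WT, 3.37 for Spp1 in Ascl5Mut/Mut (adjusted p = 0.0469) and -5.84 for the ratio between the mutant genotypes. Fits without a trend gave 0 calls in both comparisons, with Dspp in Ascl5Mut/WT still at 5.53 (adjusted p = 0.216). A minimum mean of 10, of 120, or no filter gave 1 call for Ascl5Mut/Mut. With a replicate block there were 36 and 37 calls. Ibsp at 3.70 (limma adjusted p = 0.0124) and Spp1 at 4.27 (0.0388) passed in Ascl5Mut/Mut, as did Ibsp at 2.52 in Ascl5Mut/WT (0.000327). Same-numbered libraries did not deviate together (correlations -0.01 and 0.02). That gave no sign of pairing but cannot show that the samples were unpaired. The cause of these changes was not tested.

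Leaving out each library in turn, with a lone library assumed to vary like the other group, gave 0 to 33 calls for Ascl5Mut/Mut and 0 to 34 for Ascl5Mut/WT. Calls fell to 0 without either library of the mutant genotype, to 7 for Ascl5Mut/Mut without Ascl5WT/WT replicate 1, and the highest counts came without Ascl5WT/WT replicate 2; without Ascl5WT/WT replicate 1 there were 20 for Ascl5Mut/WT. Ranges for Ascl5Mut/Mut were -1.90 to 0 for Dspp, 2.48 to 2.76 for Dmp1, 1.88 to 5.52 for Ibsp, 1.09 to 3.001 for Mepe, and 2.76 to 5.79 for Spp1. For Ascl5Mut/WT they were 4.57 to 6.49 for Dspp, 2.05 to 2.15 for Dmp1, 0.68 to 4.36 for Ibsp and 1.62 to 4.71 for Spp1. The ratio of Dspp over the bone members ran from -5.89 to -2.33 for Ascl5Mut/Mut and 1.77 to 5.39 for Ascl5Mut/WT, and that over Ibsp from -7.42 to -1.88 and 0.21 to 5.81, the last at 0.21 without Ascl5WT/WT replicate 2.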
